A study of Mus musculus with 6 samples.

Results

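miR-21 and miR-31 are microRNAs (miRNAs), short RNAs that silence mRNAs, and both are known for rising in injured or regenerating gut epithelium. Their levels were compared in the small intestinal mucosa of mice lacking the circular RNA Cdr1as and of their littermates. The 6 mature miRNAs described are mmu-miR-21a-5p, mmu-miR-21a-3p, mmu-miR-21b, mmu-miR-21c, mmu-miR-31-5p and mmu-miR-31-3p (mmu- stands for mouse and is left out below), chosen by name from the 1831 miRNAs in the deposited table, and all 6 were found there. The study asked whether loss of Cdr1as, a circular RNA that binds miR-7 and miR-671, is accompanied by changes in mucosal miRNAs. RNA from 3 littermates, labelled wildtype, and from 3 Cdr1as-/- mice, labelled cdr1as knockout, was hybridised to 6 one-colour arrays, with 1 sample on each. The labels name no injury or treatment for either group, and the age and sex of the array mice were not given in the sources used here. The knockout was a whole-body deletion of the Cdr1as locus made by CRISPR/Cas9 in C57BL/6J embryos, and the sources used here do not say whether the array mice descended from 1 founder. Cdr1as itself was not analysed here, so the deletion was not checked on these samples. The study describes the array values of a genotype as coming from 3 animals.

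Each miRNA is cut from a hairpin precursor, whose strands give a mature miRNA from the 5′ arm (-5p) and another from the 3′ arm (-3p). The stretch called the seed, near the 5′ end, does most of the pairing with target mRNAs. miR-21a-5p is among the most abundant miRNAs of many tissues, is induced by inflammation and growth signals, and represses Pdcd4, an inhibitor of translation and growth. miR-31 is induced in the epithelium after damage and has been tied to the proliferation of intestinal stem cells. The -3p strands are mostly degraded after processing and are usually the minor products. miR-21b and miR-21c are annotated copies of the miR-21 sequence at other places in the mouse genome.

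The mature sequences are shown because the 3 miR-21 copies differ at few bases, which bears on what a hybridisation array can tell apart. They were read from RefSeq on build GRCm38.p6, equal those in the deposited table, and run 5′ to 3′ with the seed, bases 2 to 8, in capitals.
miR-21a-5p, gene Mir21a, chr11:86584120-86584141, minus strand: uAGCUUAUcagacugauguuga
miR-21c, gene Mir21c, chr8:128278188-128278208, minus strand: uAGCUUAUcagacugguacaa
miR-21b, gene Mir21b, chr3:29636768-29636790, plus strand: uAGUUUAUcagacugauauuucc
miR-21a-3p, gene Mir21a, chr11:86584082-86584103, minus strand: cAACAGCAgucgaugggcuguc
miR-31-5p, gene Mir31, chr4:88910614-88910635, minus strand: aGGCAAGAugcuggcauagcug
miR-31-3p, gene Mir31, chr4:88910577-88910599, minus strand: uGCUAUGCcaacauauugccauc

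miR-21a-5p and miR-21c shared 1 seed, and each of the other 4 miRNAs had a seed of its own. No further miRNA in the deposited table carried any of these 5 seeds. Counted from 1 at the 5′ end of miR-21a-5p, miR-21b was identical to it at 18 of 22 positions and differed by C4U, G18A, G21U and A22C, of which C4U lies in the seed. miR-21c was identical at 16 of 21 positions and differed by A16G, G18A, U19C, U20A and G21A, none in the seed. The longest run that miR-21a-5p shared was 13 bases with miR-21b and 15 bases with miR-21c. How far the probes separate these copies is not given in the sources used here, and how much of the miR-21b and miR-21c signal comes from miR-21a-5p was not tested.

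The hairpins of Mir21a and Mir31 are shown because each yields 2 of the miRNAs described. In them the capitals mark the mature strands, the -5p strand first.
Mir21a hairpin, chr11:86584067-86584158, minus strand: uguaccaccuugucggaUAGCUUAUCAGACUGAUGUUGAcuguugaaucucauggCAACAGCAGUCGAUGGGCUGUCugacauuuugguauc
Mir31 hairpin, chr4:88910557-88910662, minus strand: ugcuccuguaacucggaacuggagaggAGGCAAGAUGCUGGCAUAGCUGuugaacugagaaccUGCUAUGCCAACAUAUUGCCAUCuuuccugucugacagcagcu

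Mir21a lies within the annotated span of Vmp1, a gene for a vacuole membrane protein, and Mir31 within that of the noncoding RNA Gm49890. Mir21b lies within the span of Egfem1 and Mir21c within that of the noncoding RNA A930035F09Rik. The gene table used here gives neither exons nor strand, so these positions are not assigned to an exon or intron.

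The arrays were not alike before scaling. Over all miRNA probes, the scanner signal had a median of 236 in littermate 3 and of 29.2 in Cdr1as-/- mouse 1, whereas the remaining 4 arrays had medians from 8.75 to 14.1. After the authors' normalization the median miRNA was at 4.61 to 4.77 on the log2 scale on every array. Littermate 3 therefore stands apart, and the differences between genotypes are given with all 6 arrays and without it. The scanner output names 2 slides, the first with all 3 littermates plus Cdr1as-/- mouse 1 and the second with the remaining Cdr1as-/- mice. Littermate 1 was scanned at another time than the other 5 arrays. The deposited level of a miRNA is the log2 of its normalized signal, and the normalization is not given in the sources used here. For each of the 6 miRNAs the level was matched to a mean over 5 probes, and these probes were assigned by that match. Precision is limited by having 3 arrays for each genotype.

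miR-21a-5p, the main product of Mir21a, had deposited log2 levels of 14.20, 14.25 and 12.30 in littermates 1, 2 and 3 and of 14.18, 14.45 and 13.90 in Cdr1as-/- mice 1, 2 and 3. Littermate 3 was the lowest array, and the other 5 lay close together with the genotypes overlapping. The difference, Cdr1as-/- minus littermates, was 0.59 (95% interval -0.79 to 1.98) with all 6 arrays, and its limma p adjusted over all 1831 miRNAs was 0.99997. Without littermate 3 it was -0.049 (interval -0.62 to 0.52), with an adjusted limma p of 0.917. The unscaled scanner signal, averaged over its 5 probes, came to 17394, 19272 and 14300 in the 3 littermates, and in the knockouts it was 20738, 21232 and 11990. The highest of these was 1.77 times the lowest, and the lowest was in Cdr1as-/- mouse 3, not in littermate 3. In mucosal tissue, fewer cells of a type and less RNA per cell cannot be told apart, here or for the miRNAs that follow.

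miR-21a-3p, from the other arm of the same hairpin, had levels of 6.003, 5.83 and 3.81 in littermates 1, 2 and 3, and in the Cdr1as-/- mice they were 4.46, 5.81 and 5.39. Littermate 3 was again lowest and Cdr1as-/- mouse 1 next. The difference was 0.0021 (interval -1.65 to 1.65) with 6 arrays and -0.70 (interval -1.54 to 0.14; adjusted limma p 0.393) without littermate 3. In that comparison the Cdr1as-/- mice were all below littermates 1 and 2, although Cdr1as-/- mouse 2 was lower than littermate 2 by a margin well within the spread of either group. The unscaled signal was 23.0, 25.7 and 126 in the 3 littermates, and in the knockouts it was 30.02, 30.8 and 22.6. On that scale littermate 3 was the highest array, the opposite of its place on the deposited scale. Of its 30 spots, 28 were well above background.

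miR-21b had levels of 7.22, 6.98 and 4.07 in littermates 1, 2 and 3, and in the Cdr1as-/- mice they were 5.46, 6.46 and 5.998. All 3 Cdr1as-/- mice lay below littermates 1 and 2 and above littermate 3. With 6 arrays the difference was -0.12 (interval -2.23 to 1.99; adjusted limma p 0.99997). Without littermate 3 it was -1.13 (interval -1.84 to -0.42), a level 0.457 times that of littermates 1 and 2, with an unadjusted limma p of 0.00579 and an adjusted p of 0.247. By the two-sided exact permutation test its p was 1 with 6 arrays and 0.2 without littermate 3, and the smallest values the test can give are 0.1 and 0.2. The unscaled signal was 51.2, 52.3 and 153 in the 3 littermates, and in the knockouts it was 65.6, 47.0 and 35.6. Without scaling, Cdr1as-/- mouse 1 was thus above littermates 1 and 2, and the other Cdr1as-/- mice were below them.

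miR-21c had levels of 4.71, 4.54 and 3.79 in littermates 1, 2 and 3, and in the Cdr1as-/- mice they were 3.94, 4.51 and 4.14. Littermate 2 and Cdr1as-/- mouse 2 had almost the same level. The difference was -0.15 (interval -0.96 to 0.66) with 6 arrays and -0.43 (interval -1.02 to 0.16; adjusted limma p 0.403) without littermate 3. The unscaled signal was 10.4, 11.9 and 122 in the 3 littermates, and in the knockouts it was 20.5, 14.5 and 9.41, and 26 of 30 spots were well above background. Littermate 3 gave 10.9 times the mean signal of littermates 1 and 2, so that the range of its unscaled signal came mostly from 1 array.

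miR-31-5p, the main product of Mir31, had levels of 11.05, 10.84 and 6.81 in littermates 1, 2 and 3, and in the Cdr1as-/- mice they were 9.60, 10.60 and 10.47. The Cdr1as-/- mice lay between littermates 1 and 2 above and littermate 3 below. The difference was 0.66 (interval -2.15 to 3.46; adjusted limma p 0.99997) with 6 arrays and -0.72 (interval -1.46 to 0.022; adjusted limma p 0.386) without littermate 3. Unscaled, its signal was 1217, 1223 and 1323 in the 3 littermates, and in the knockouts it was 1173, 992 and 915. Every Cdr1as-/- mouse was below every littermate in this mean over probes, with the highest array 1.45 times the lowest. Probes 1 and 3 alone kept that order, and probes 2, 4 and 5 did not. At probe 2, Cdr1as-/- mouse 1 was at 347 and littermates 1 and 2 were both at 301. At probe 5, Cdr1as-/- mouse 1 was at 2660 and littermate 3 at 2350. The share of all miRNAs with such an order on the unscaled scale was not counted.

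miR-31-3p, from the same hairpin, had levels of 9.30, 9.26 and 4.70 in littermates 1, 2 and 3, and in the Cdr1as-/- mice they were 7.19, 8.83 and 8.41. It had the same order of arrays as miR-31-5p. The difference was 0.39 (interval -2.78 to 3.56; adjusted limma p 0.99997) with 6 arrays. Without littermate 3 it was -1.14 (interval -2.11 to -0.16), a level 0.455 times that of littermates 1 and 2, with an unadjusted limma p of 0.0266 and an adjusted p of 0.323. Its unscaled signal was 272, 303 and 278 in the 3 littermates, and in the knockouts it was 283, 242 and 203. Cdr1as-/- mouse 1 was within the range of the littermates on that scale, and the other 2 were below them.

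**Figure D1:**
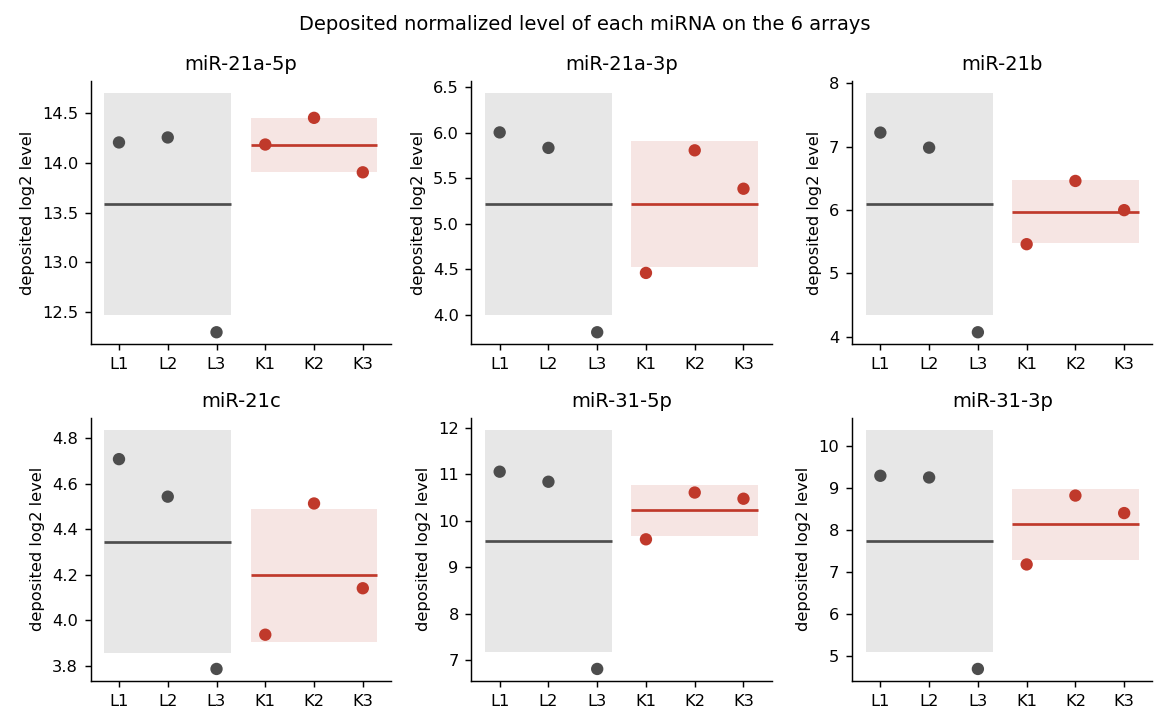
Deposited log2 level of each miRNA (y axis, a separate scale in each panel) on the arrays of littermates 1 to 3 (L1 to L3, grey) and Cdr1as-/- mice 1 to 3 (K1 to K3, red). Points are single arrays, lines are group means and shading is ± 1 SD (n = 3). Littermate 3 is the lowest array in all 6 panels.

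Littermate 3 was the lowest of the 6 arrays for 6 of the 6 miRNAs, as it was for 22.1% of all 1831. Its deposited level lay below the mean of littermates 1 and 2 by amounts that ranged from -0.84 for miR-21c to -4.58 for miR-31-3p on the log2 scale. Over all 1831 miRNAs the median of that difference was 0.39. Within the knockout group, mouse 1 was below mice 2 and 3 for 5 of the 6 miRNAs, against 25.7% of all miRNAs, the exception being miR-21a-5p. The standard deviation of the deposited log2 level over the 3 littermates was 2.39 for miR-31-5p and 2.64 for miR-31-3p, compared with 0.55 and 0.85 over the 3 Cdr1as-/- mice. With all 6 arrays, the difference between genotypes was smaller than the littermates' standard deviation for each of the 6 miRNAs.

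With all 6 arrays, 0 of the 6 miRNAs passed an adjusted limma p of 0.05, and 0 of 1831 did (0.0%). At an unadjusted p below 0.05, 0 of the 6 passed, against 0.218% of all miRNAs lower and 0.109% higher in Cdr1as-/- mice. The unadjusted p ran from 0.335 to 0.998. The difference was below 0 for 2 of the 6, miR-21b and miR-21c, and for 60.9% of all miRNAs. The intervals were wide enough to hold a 4-fold change in either direction for miR-31-5p, miR-31-3p and, toward lower levels, miR-21b.

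Without littermate 3, 0 of the 6 passed the adjusted threshold, again as 0.0% of all miRNAs. At an unadjusted p below 0.05, miR-21b and miR-31-3p were lower, 2 of 6, against 10.5% of all miRNAs lower and 2.73% higher. All 6 differences were below 0, compared with 42.9% of all miRNAs. Being lower as a group was not particular to them. Among the lists described below, 6 of 6 immune, 8 of 9 epithelial, 6 of 8 injury, 2 of 2 erythroid and 1 of 4 smooth muscle miRNAs were below 0. Ordered from the lowest difference, miR-31-3p stood at place 19 and miR-21b at place 20 of 1831, and miR-21a-5p at 722. All 3 Cdr1as-/- mice were below littermates 1 and 2 for 5 of the 6, the exception being miR-21a-5p, and for 19.9% of all miRNAs. With littermate 3 counted, the Cdr1as-/- mice were below all littermates for 0 of the 6, against 2.73% of all miRNAs. The median difference of the 6 was 0.20 with all arrays and -0.71 without littermate 3, while that of all 1831 was -0.065 and 0.095.

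The arms of 1 hairpin were also set side by side. Relative to littermates 1 and 2, miR-21a-5p differed by -0.046, 0.22 and -0.32 in Cdr1as-/- mice 1, 2 and 3, and miR-21a-3p by -1.46, -0.11 and -0.53. The strands of Mir31 moved more alike, with -1.35, -0.34 and -0.47 for miR-31-5p and -2.09, -0.45 and -0.87 for miR-31-3p. Cdr1as-/- mouse 1 gave the lowest value for 3 of these 4 strands, and it is the array with the highest median signal in its group. Without littermate 3, the intervals of the -5p and -3p differences overlapped for both hairpins.

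**Figure D2:**
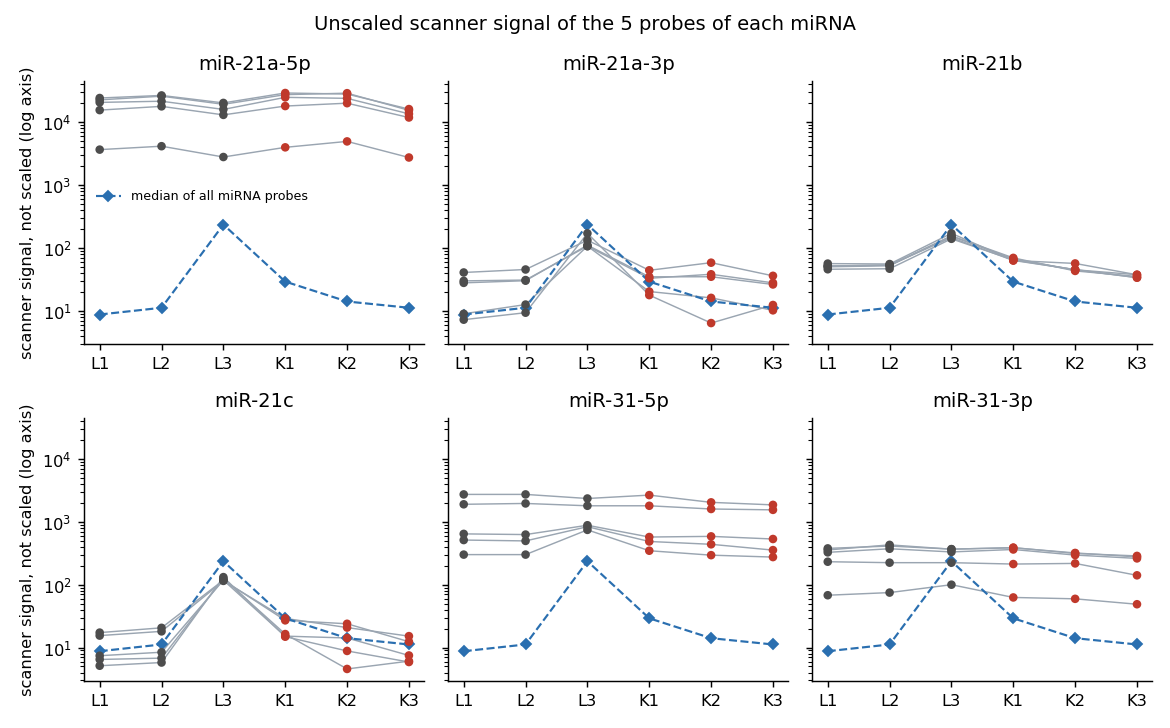
Unscaled scanner signal (y axis, log scale, shared by the panels) of the 5 probes of each miRNA on the 6 arrays (L, littermates, grey; K, Cdr1as-/- mice, red), with thin lines joining the values of a probe. The dashed blue line is the median of all miRNA probes on each array, which rises from 8.75 in littermate 1 to 236 in littermate 3, while each probe of miR-21a-5p, miR-31-5p and miR-31-3p changes by 1.27 to 2.71 times between its lowest and highest array.

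The unscaled signals show where the low deposited levels of littermate 3 stand in the signal of the whole array. For the median miRNA, littermate 3 gave 27.04 times the mean signal of littermates 1 and 2. For miR-21a-5p that ratio was 0.780, for miR-31-3p 0.967 and for miR-31-5p 1.08. These 3 rank 12, 31 and 36 from the lowest among all 1831. The ratio was 2.97 for miR-21b, 5.17 for miR-21a-3p and 10.9 for miR-21c. The ratio was low among the brightest miRNAs: its median was 27.9 over the 1539 miRNAs with a mean signal below 50 in littermates 1 and 2, 36.1 over the 188 between 50 and 200, and 1.44 over the 104 at 200 or more. miR-21a-5p, miR-31-5p and miR-31-3p belong to the last of these classes. miR-21b belongs to the middle class, and miR-21a-3p and miR-21c to the dimmest. Each of these miRNAs had a ratio below the median of its own class.

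Cdr1as-/- mouse 1 had ratios that were also lowest in the brightest class. Its signal was 3.05 times that of littermates 1 and 2 for the median miRNA of the dimmest class, 6.42 times in the middle class and 1.36 times in the brightest. For the 6 miRNAs the ratio lay between 0.962 for miR-31-5p and 1.84 for miR-21c. In Cdr1as-/- mouse 3, by contrast, 6 of the 6 ratios were below 1, from 0.654 for miR-21a-5p to 0.927 for miR-21a-3p, and 37.6% of all miRNAs were below 1. The median ratio of that mouse was 1.12 in the dimmest class, 1.92 in the middle class and 0.759 in the brightest. The part that array signal plays in the genotype differences was not tested.

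**Figure D3:**
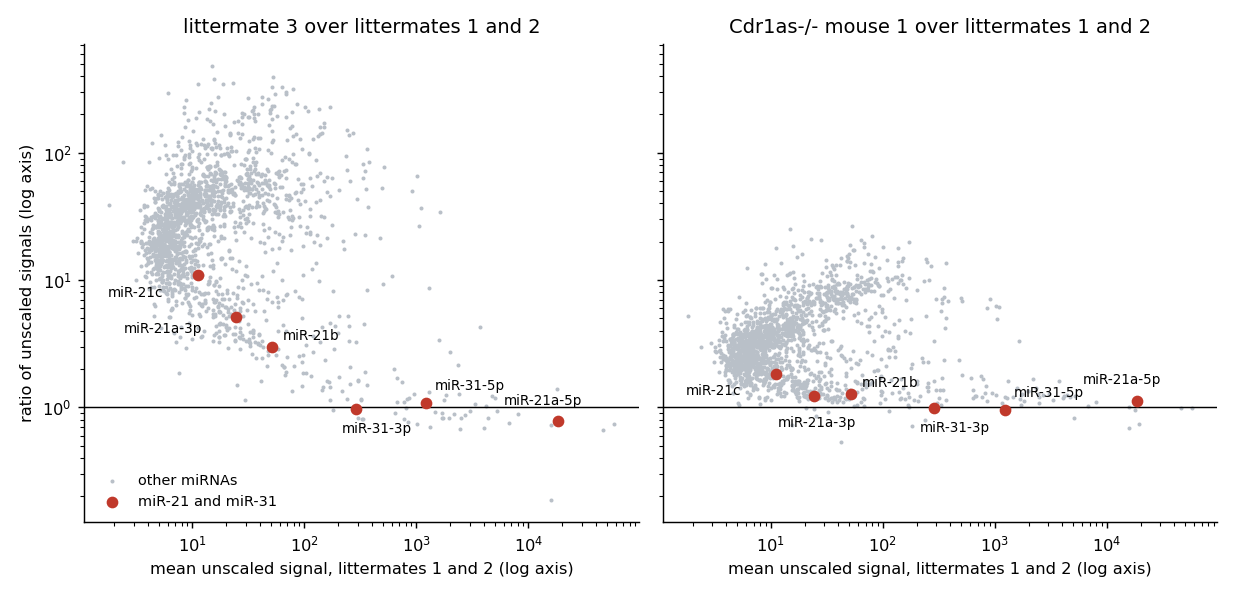
Ratio of the unscaled signal in littermate 3 (left) and in Cdr1as-/- mouse 1 (right) to the mean of littermates 1 and 2 (y axis, log scale) against that mean (x axis, log scale), for 1831 miRNAs. Red points are the 6 miRNAs described, whose ratios in the left panel run from 0.780 for miR-21a-5p to 10.9 for miR-21c, all below the median of 27.04.

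Other scalings of the scanner signal were therefore set beside the deposited one. Each array's log2 signal was taken relative to its 75th percentile taken over probes detected above background on every array, with the brightest probe for each miRNA. Without littermate 3 the differences on this scale were -1.04 for miR-21a-5p, -0.86 for miR-21a-3p, -1.06 for miR-21b, -0.85 for miR-21c, -1.27 for miR-31-5p and -1.19 for miR-31-3p, all 6 below 0, as were 57.9% of all miRNAs. At an unadjusted limma p below 0.05, 4 of the 6 were lower (miR-21a-5p, miR-21b and both miR-31 strands), against 8.63% of all miRNAs lower and 2.13% higher. For these 4, each Cdr1as-/- mouse was below littermates 1 and 2, and mouse 1 was lowest. For miR-21a-5p, mouse 2 (6.97) nearly reached littermate 2 (7.05) and littermate 1 (7.15), while mouse 3 was at 5.98 and mouse 1 at 5.24. The 75th percentile signal was 770.5 for mouse 1, 224 for mouse 2 and 256.5 for mouse 3. It was 171 for littermate 1 and 201 for littermate 2. The part of this percentile in the differences was not tested. With all 6 arrays the same scale gave 0.55, 0.080, -0.12, -0.25, 0.28 and 0.32 for the miRNAs in the same order, miR-21a-5p to miR-31-3p, 2 of the 6 below 0 against 72.1% of all miRNAs. Without littermate 3, none passed after adjustment, where the lowest adjusted limma p of the 6 was 0.427 and 0.0% of all miRNAs passed. miR-21a-5p moved most between the 2 scales, from -0.049 to -1.04.

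With no scaling at all, and without littermate 3, the differences were -0.10 for miR-21a-5p, 0.073 for miR-21a-3p, -0.13 for miR-21b, 0.085 for miR-21c, -0.34 for miR-31-5p and -0.26 for miR-31-3p. Their unadjusted limma p ran from 0.649 to 0.921. None of the 6 passed at an unadjusted p below 0.05, against 0.0% of all miRNAs lower, while 275 of the 1831 were higher. A count of 4 of the 6 were below 0, compared with 9.78% of all miRNAs. With all 6 arrays the unscaled differences were 0.0044, -0.47, -0.66, -0.80, -0.27 and -0.23, again from miR-21a-5p to miR-31-3p, 5 of the 6 below 0 against 96.9% of all miRNAs. Without littermate 3, the scaling moved the median of all 1831 miRNAs to 0.79 without scaling, from 0.095 on the deposited scale and -0.15 on the 75th percentile scale. Relative to that median, the 6 differences lay between -1.13 and -0.70 on the unscaled and 75th percentile scales without littermate 3, and between -1.23 and -0.14 on the deposited scale. The first 2 of these scales differ by 1 constant for each array, which fixes the same relative values on both. With all 6 arrays, the 6 differences lay between -0.084 and 0.72 relative to the median on the deposited scale.

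**Figure D4:**
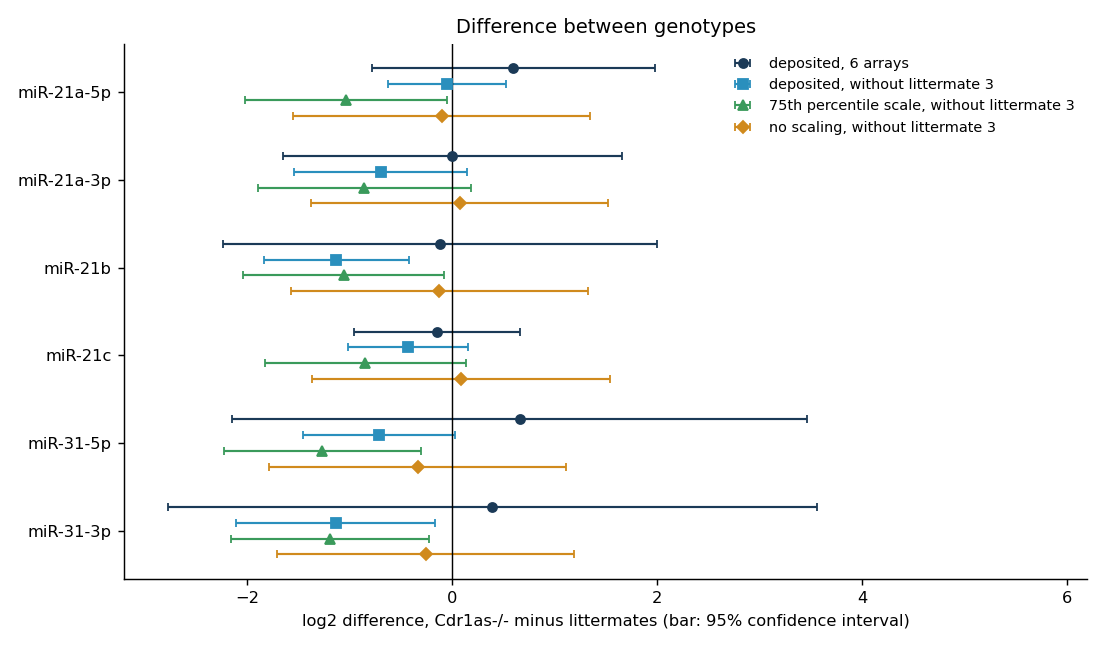
Log2 difference of each miRNA, Cdr1as-/- minus littermates (x axis), with 95% confidence intervals from limma, on the deposited scale with 6 arrays and, without littermate 3, on the deposited scale, the 75th percentile scale and with no scaling. The 4 estimates differ in sign for miR-21a-5p, miR-21a-3p, miR-21c and both miR-31 strands, and stay below 0 for miR-21b, from -1.13 to -0.12.

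The 5 probes of each miRNA mostly pointed the same way. On the deposited scale without littermate 3, 28 of 30 probes were below 0, and with all arrays 8 of 30. For whole miRNAs, 42.9% and 60.9% of all 1831 were below 0 in these comparisons. Shares over all probes were not counted. For miR-21b the probes gave -1.21 to -0.97 without littermate 3 and -0.17 to 0.017 with it. The probes of miR-31-3p gave -1.33 to -1.08 and 0.018 to 0.46, and those of miR-31-5p -1.05 to -0.65 and 0.24 to 0.78. The probes of miR-21c were the least alike, from -0.77 to 0.18 without littermate 3. Littermate 3 was the lowest array for 26 of the 30 probes on the deposited scale, and for 22.1% of all miRNAs. On the unscaled scale without littermate 3, 18 of 30 probes were below 0, as were 9.78% of all miRNAs. Of the 10 probes of miR-21a-3p and miR-21c, 0 were among those 18. Probes assigned to 1 miRNA read the same arrays and are not replicates of the mice.

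The slide holds both genotypes only on the first, where Cdr1as-/- mouse 1 is set against the 3 littermates. With the slide as a block, which rests on that mouse, the differences were 0.60 for miR-21a-5p, -0.75 for miR-21a-3p, -0.63 for miR-21b, -0.41 for miR-21c, 0.032 for miR-31-5p and -0.56 for miR-31-3p. Leaving littermate 3 out of that slide gives Cdr1as-/- mouse 1 minus the mean of littermates 1 and 2, which was -1.64 for miR-21b and -0.69 for miR-21c and is given above for the other strands. With all arrays, the direction turned for miR-21a-3p and miR-31-3p relative to the fit without the block, and the adjusted limma p was 0.99957 for each.

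The 8 other miRNAs linked to injury and inflammation that were listed for this tissue were all on the array. They are miR-155-5p, miR-146a-5p, miR-146b-5p and miR-223-3p, known from immune signalling and myeloid cells, miR-132-3p and miR-212-3p from 1 gene cluster, miR-34a-5p, a p53 target, and miR-135b-5p. Their median difference was 0.045 with all arrays, with 3 below 0 against 60.9% of all miRNAs. Without littermate 3 it was -0.60, with 6 below 0 against 42.9% of all miRNAs. None passed an adjusted limma p of 0.05 in either comparison. Without littermate 3, miR-212-3p was lower by -1.31 (unadjusted limma p 0.00334, adjusted 0.247) and miR-34a-5p by -0.99 (unadjusted 0.0430, adjusted 0.364), 2 of 8 against 10.5% of all miRNAs. Every Cdr1as-/- mouse was below littermates 1 and 2 for 1 of the 8, miR-212-3p, and for 19.9% of all miRNAs. The levels of miR-212-3p were 5.09, 6.11 and 5.38 against 7.05 and 6.63, and littermate 3 was at 4.59. miR-155-5p had nearly the same level on every array, from 7.01 to 7.58.

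The listed markers of the cells in mucosa were measured on all 6 arrays. All 9 epithelial miRNAs, such as miR-192-5p, miR-194-5p and miR-200b-3p, had a probe well above background on every array, and their summed unscaled signal lay between 108440 in littermate 3 and 145140 in Cdr1as-/- mouse 1. Their median difference was 0.84 with all arrays and -0.16 without littermate 3, where 8 of 9 were below 0 against 42.9% of all miRNAs. The 6 immune miRNAs, 3 of them also on the injury list, had a summed signal between 2677 and 6968. Their median difference was 0.59 with all arrays and -0.32 without littermate 3, where 6 of 6 were below 0 against 42.9% of all miRNAs. The 4 smooth muscle miRNAs had a summed signal of 7265 in Cdr1as-/- mouse 1, 3088 in mouse 2 and 608 in mouse 3, and of 1177 to 1446 in the littermates, with a median difference of 1.37 with all arrays and 0.32 without littermate 3. The 2 erythroid miRNAs, miR-451a and miR-144-3p, had a summed signal between 117 and 601 and a median difference of -0.23 with all arrays and -1.15 without littermate 3, with miR-451a highest in littermate 1 at 9.95. The arrays thus differed in muscle and blood markers as well, and the part of these in the miR-21 and miR-31 values was not tested.

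**Figure D5:**
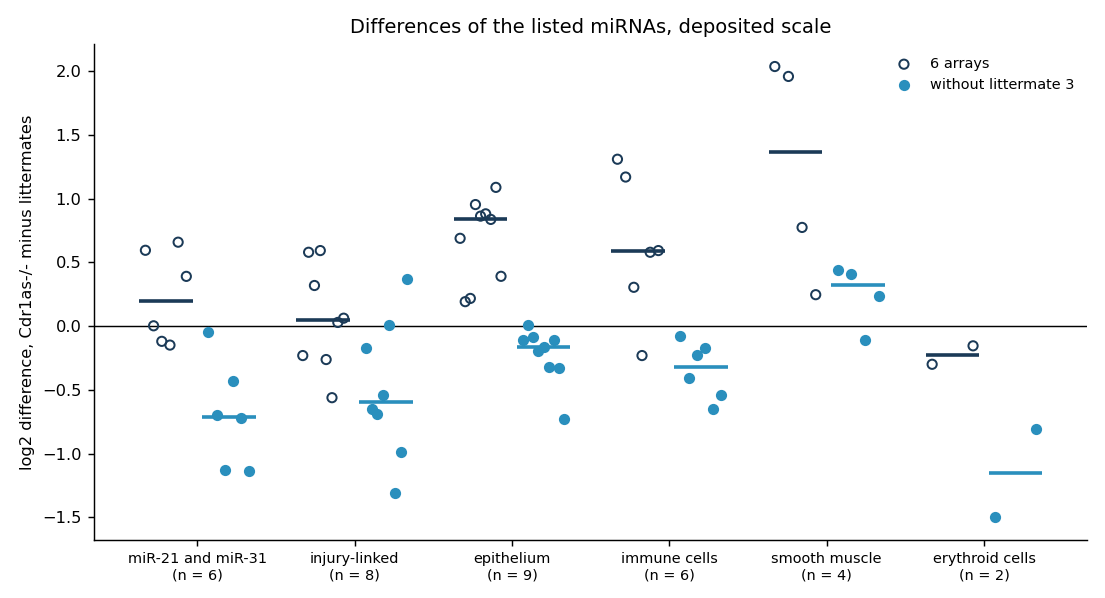
Log2 difference, Cdr1as-/- minus littermates, on the deposited scale (y axis) of each miRNA in 6 lists, with all 6 arrays (open) and without littermate 3 (filled); bars are list medians. The median of the miR-21 and miR-31 miRNAs is 0.20 with 6 arrays and -0.71 without littermate 3, and that of the epithelial list 0.84 and -0.16.

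The miRNAs whose deposited levels followed those of miR-21a-5p most closely over the 6 arrays were miR-142a-3p, a miRNA of blood cells, with a Pearson r of 0.997, then let-7f-5p and let-7a-5p, both with r of 0.996. Over the 5 arrays without littermate 3, r was 0.994 for miR-142a-3p and 0.925 for each of the let-7 miRNAs. For miR-31-5p they were miR-215-3p (r of 0.998), miR-107-3p (0.996) and miR-103-3p (0.995), with 0.999, 0.967 and 0.966 over 5 arrays. miR-31-3p ranked 17 by likeness to miR-31-5p, with r of 0.989 both with and without littermate 3. miR-21a-3p ranked 192 by likeness to miR-21a-5p, with r of 0.801 over 6 arrays and 0.304 over 5. These values describe 6 arrays that share 1 scaling and 1 array far from the rest.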

How the data were processed

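Total RNA was dephosphorylated, labelled with Cy3 and hybridised, per the labels. The study's methods name a miRCURY LNA array, while the scanner output comes from Agilent Feature Extraction 11.0.1.1, per the submitters' processing notes. The deposited scanner output gives the background-subtracted intensity of each spot, not normalized between arrays. The deposited log2 values had been normalized by the authors, by a method not given in the sources used here. The probes of each miRNA were inferred, as the set of 1 to 5 neighbouring probe numbers whose mean unlogged value best matched the deposited values. A set was kept if its log2 mean was within 0.0003 of the deposited value, which held for 1831 of 1831 miRNAs. The close match is thus the rule by which probes were assigned, not a separate check of them. The authors' columns of fold changes and p-values, deposited as ratio, log2, p-value and −log10 values, were not used.

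Samples were grouped by the labels. limma 3.58.1 (lmFit and eBayes, R 4.3.3) was fitted to the deposited log2 values of all 1831 miRNAs, with no filter and Benjamini-Hochberg adjustment over all of them. The code was tested on simulated data. Alternatives covered 4 ways of scaling or background correction (normexp offset 50), a filter on dim probes, an intensity trend, the methods' t-test, blocks for replicate number and slide, and single arrays and probes. Unscaled signals, and the scaled or unscaled signals without littermate 3, were added after seeing the data. Named miRNAs were the 6, miRNAs sharing their seeds, the 3 most like miR-21a-5p and miR-31-5p, and the lists. The members and lists were chosen with earlier results of these data known. Sequences came from RefSeq tables. Python 3.11.15, NumPy 2.4.6, pandas 2.3.3, SciPy 1.17.1 and matplotlib 3.10.9 were used.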

Additional observations from a re-analysis of the deposited data

How the results depend on the processing

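Under every alternative run, 0 of the miRNAs tested passed an adjusted p of 0.05. The count at an unadjusted p below 0.05 was 4 lower and 2 higher with all 6 arrays, 192 and 50 without littermate 3, and 19 and 2 by the methods' t-test. It was 158 and 39 on the 75th percentile scale and 0 and 275 unscaled, both without littermate 3, and 0 to 9 and 0 to 16 under the other alternatives. No alternative brought any of the 6 miRNAs past the adjusted threshold, and the lowest adjusted p was 0.247. Of 144 alternative values of the 6 differences, 27 had the opposite sign and 117 kept their sign, 24 of these because the filter, the trend, the t-test and the replicate block cannot change a difference of means. Leaving out 1 array at a time gave -0.049 to 0.93 for miR-21a-5p, -0.70 to 0.40 for miR-21a-3p, -1.13 to 0.45 for miR-21b, -0.43 to 0.032 for miR-21c, -0.72 to 1.40 for miR-31-5p and -1.14 to 1.16 for miR-31-3p, and leaving out littermate 3 gave the lowest value each time. The sign of miR-21b also turned without littermate 1 (0.45), littermate 2 (0.33) or Cdr1as-/- mouse 1 (0.14), and that of miR-21a-3p without Cdr1as-/- mouse 2 (-0.29) or 3 (-0.082). The signs that turned under other settings were, for miR-21a-5p, -1.04 on the 75th percentile scale and -0.10 unscaled, both without littermate 3. For miR-21a-3p they were -0.75 with the slide as a block, -0.075 with probes averaged on the log2 scale, -0.47 unscaled with all arrays, -0.86 on the 75th percentile scale without littermate 3, and -0.072 and -0.46 for probes 2 and 4 alone. For miR-21b it was 0.062 for probe 4 alone, and for miR-21c 0.085 unscaled without littermate 3. For miR-31-5p they were -0.27 unscaled, -1.27 on the 75th percentile scale without littermate 3 and -0.34 unscaled without it. For miR-31-3p they were -0.56 with the slide as a block, -0.23 unscaled, -1.19 on the 75th percentile scale without littermate 3 and -0.26 unscaled without it. The cause was not tested.

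The correlations of deviations between same-numbered samples were -0.76, 0.56 and -0.22. The highest correlation, 0.81, was between littermate 3 and Cdr1as-/- mouse 1, the arrays with the highest median signals. With 3 arrays for each genotype, these correlations cannot decide whether the numbers pair the samples. With the replicate number as a block the differences were as without it (0.59, 0.0021, -0.12, -0.15, 0.66 and 0.39), and the unadjusted counts were 1 lower and 2 higher. By the count of spots well above background, dim signals limit miR-21c and miR-21a-3p most, with 26 and 28 of 30. The spots that fell short were in Cdr1as-/- mouse 2 and, for probe 5 of miR-21c, also in littermate 1. In Cdr1as-/- mouse 2, 41.5% of all miRNA probes were well above background, against 66.8% to 100% on the other arrays. In littermate 3, where 100% passed, this count cannot tell dim miRNAs from bright ones. There the mean signals of miR-21b, miR-21a-3p and miR-21c were 153, 126 and 122, below that array's median probe signal of 236. Its deposited levels of miR-21b, miR-21a-3p, miR-21c and miR-31-3p (4.07, 3.81, 3.79 and 4.70) were below its median miRNA at 4.77.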
